A study of Mus musculus with 8 samples.

Results

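The genes described here encode the proteases that cut the extracellular matrix and proteins related to their control: the matrix metalloproteinases (Mmp), the ADAMTS proteases (Adamts), the ADAMTS-like proteins (Adamtsl) and the tissue inhibitors of metalloproteinases (Timp). They were chosen by gene symbol, with earlier results of these data known. Of the 17500 genes in the deposited table, 41 carried such a symbol, comprising 14 Mmp, 18 Adamts, 5 Adamtsl and 4 Timp genes. Polyadenylated RNA of whole retina was sequenced from 4 control and 4 Rbfox2 KD mice, 1 library per mouse, to ask how loss of the splicing factor *Rbfox2* alters the retinal transcriptome. All mice were of strain C57BL/6J and 6 months old. The Rbfox2 KD mice carried floxed alleles of *Rbfox2* on both chromosomes and a tamoxifen-inducible Cre driven by a ubiquitin promoter, which is active in most cell types, so that the deletion was not limited to neurons. The controls were heterozygous for the floxed allele, and the study's methods name no Cre for them. The labels name tamoxifen treatment and 4 months for every mouse, controls included, whereas the methods name tamoxifen or corn oil vehicle given over a few days, with the 4 months as the time since induction. Effects of Cre itself, and of tamoxifen if the controls received vehicle, cannot be told apart from those of *Rbfox2* loss.

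Mmp and Adamts proteases are made as inactive precursors and hold a zinc ion in the catalytic site. Matrix metalloproteinases cleave collagens, basement membrane proteins and growth factor carriers, some of them while anchored in the cell membrane, whereas ADAMTS proteases cleave proteoglycans such as versican and aggrecan, trim procollagens or act on fibrillin microfibrils. ADAMTS-like proteins share the matrix-binding domains of the ADAMTS family but lack the protease domain, and Timp proteins block the active site of the proteases. In the eye these proteins take part in the turnover of the vitreous, the vessel walls, Bruch's membrane and the outflow tissue of the anterior chamber, and *TIMP3* is the gene of Sorsby fundus dystrophy.

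The zinc site separates the proteases from the other members, and it was located in the coding sequence of each gene (longest coding transcript of GENCODE M21, GRCm38, the assembly that mm10 names). The motif searched was the metzincin zinc-binding motif, which holds 3 histidines, with glycine, asparagine or serine allowed at its variable position after a first search for glycine alone had missed some ADAMTS genes. It was present in 14 of 14 Mmp and 18 of 18 Adamts genes, in 0 of 5 Adamtsl and 0 of 4 Timp genes, and in 56 of the 15378 genes of the table for which a coding transcript was read (0.364%). In all 14 Mmp genes the motif lay within 1 exon, and in all 17 Adamts genes whose position was read an intron separated it into 2 exons. The site is shown for the proteases whose groups did not overlap and for the protease with the highest FPKM in each family, as spliced coding sequence of 33 bases with the 3 histidine codons in capitals.
Mmp16: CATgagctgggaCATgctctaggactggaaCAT
Mmp23: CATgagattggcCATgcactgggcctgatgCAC
Mmp17: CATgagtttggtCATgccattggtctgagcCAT
Adamts9: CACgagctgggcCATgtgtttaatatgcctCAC
Adamts2: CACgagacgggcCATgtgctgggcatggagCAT
Adamts3: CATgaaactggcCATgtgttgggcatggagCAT
Counted on GRCm38, these stretches lay at chr4:18051748-18051780 (plus strand, exon 5) for *Mmp16*, chr4:155651528-155651560 (minus strand, exon 5) for *Mmp23*, chr5:129596597-129596629 (plus strand, exon 5) for *Mmp17*, chr6:92905285-92908493 (minus strand, exons 8 and 9) for *Adamts9*, chr11:50775403-50776134 (plus strand, exons 7 and 8) for *Adamts2* and chr5:89707433-89707818 (minus strand, exons 8 and 9) for *Adamts3*. Every base shown was coding, and in the Adamts genes the positions span the intron.

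The libraries held 160630226 to 211283591 counts, so that 3 counts, the limit that a count of 0 allows, corresponded to 0.0144 to 0.0189 CPM, counts scaled to a common library size. As a check of the labels, *Rbfox2* had 26239 to 30008 counts in the controls and 8503 to 11406 in the Rbfox2 KD mice, which left 37.7% of the control CPM. Photoreceptor markers were high in every library, at a summed 57069 to 61363 CPM in controls and 59125 to 64600 CPM in Rbfox2 KD mice. All 8 had a positive log2 fold change (Rbfox2 KD minus control), with a median of 0.11. An unadjusted p under 0.05 was found for 3 of the 8 (*Gnat1*, *Opn1sw* and *Pde6b*), against 6.42% of all genes in the same direction. DESeq2 called the same 3 at a false discovery rate of 0.05, against 3.07% of all genes. Without the mice M901 and M902, described next, 1 of the 8 was negative and the median was 0.088. Most of the genes described here had a negative log2 fold change, and the part of the photoreceptor difference in their values was not tested. The Rbfox2 KD mice M901 and M902 stood apart: they had 277506 and 275967 counts of the X-inactivation transcript *Xist* against 312 to 426 in the other 6 mice, and they were separated from the others on the first principal component. The labels give no sex. No control had high *Xist*, so whatever sets these mice apart, sex included, is unbalanced between the groups, and its part in the values was not tested. Values without these libraries are given beside the sign counts of the members and families, the pathway lists and the members in which both mice were lowest. Sign counts by role are given with all mice only. Nothing in the labels or methods says how the mice were related or in which batch each retina was processed, and fewer cells of a type and less RNA per cell cannot be told apart in whole retina.

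The levels of different genes were compared per length, in the deposited FPKM, which scale fragments by gene length and library size. Both highest members were inhibitors. *Timp2* had a mean of 40.5 ± 3.46 FPKM in controls and 35.5 ± 2.60 FPKM in Rbfox2 KD mice (SD, n = 4 each), and *Timp3* had 36.6 ± 10.7 and 27.7 ± 7.72 FPKM. These neighbours in the order of levels did not differ beyond their spread. The most abundant protease was *Adamts3* at 11.6 ± 0.452 FPKM in controls, followed by *Mmp17* at 8.89 ± 0.442 FPKM, *Mmp14* at 8.05 ± 1.46 FPKM and *Mmp9* at 7.58 ± 1.16 FPKM. *Adamts3* lay above the spread of the next proteases, whereas *Mmp17*, *Mmp14*, *Mmp9* and *Mmp24* (7.53 ± 0.464 FPKM in controls) lay close to each other, and the spreads of *Mmp14*, *Mmp9* and *Mmp24* overlapped. Of the 41 genes, 18 had a mean of at least 1 FPKM over the 8 mice and 23 were below it. The lowest, *Mmp13*, *Mmp25* and *Adamts14*, did not pass the filter on low counts and were not tested.

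**Figure D1:**
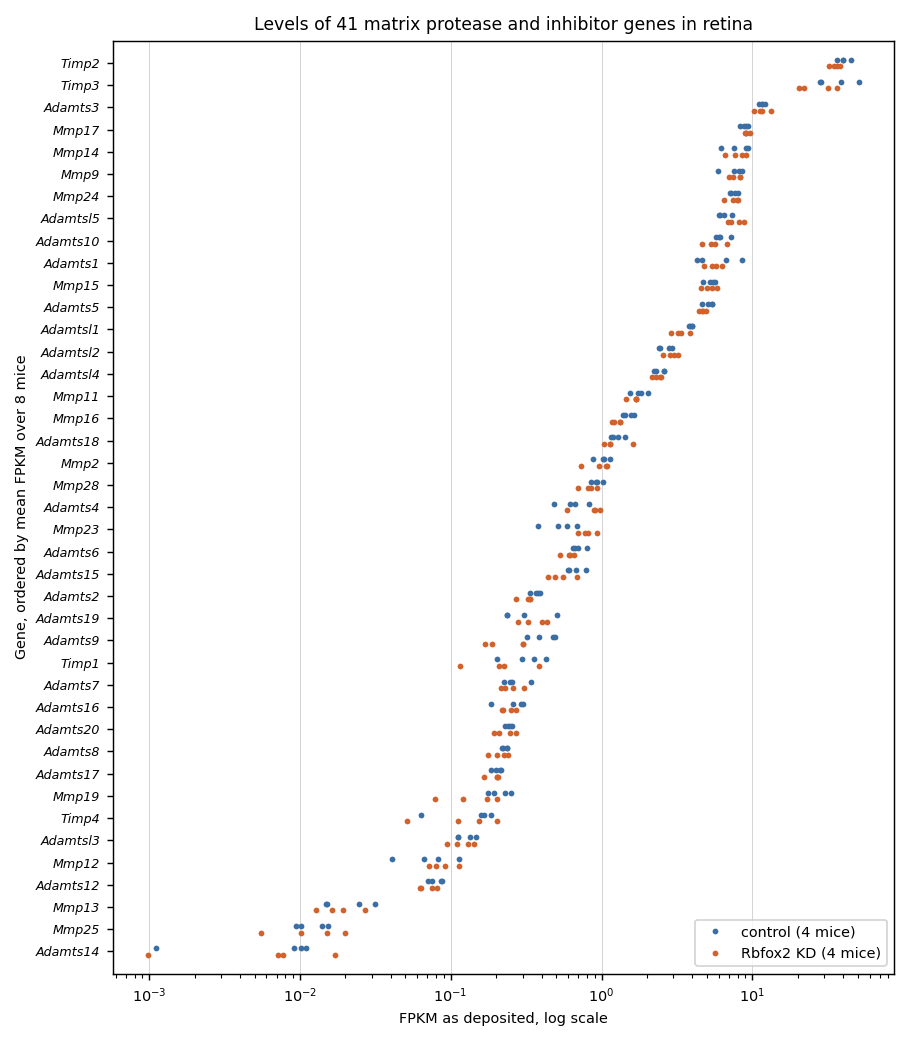
FPKM of the 41 genes in each of the 8 mice (log scale, 1 row per gene, ordered by mean FPKM). Blue points are the 4 controls and orange points the 4 Rbfox2 KD mice, and the levels run from *Timp2* and *Timp3* at the top to *Mmp13*, *Mmp25* and *Adamts14* at the bottom.

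Summed over the 4 Timp genes, the level was 77.5 ± 13.9 FPKM in controls and 63.6 ± 9.96 FPKM in Rbfox2 KD mice, with ranges that overlapped (65.4 to 96.5 against 53.1 to 73.4 FPKM). The Mmp sum was 43.4 ± 2.76 FPKM in controls and 43.4 ± 2.81 FPKM in Rbfox2 KD mice, the Adamts sum 34.7 ± 3.75 and 32.8 ± 1.91 FPKM, and the Adamtsl sum 15.6 ± 0.823 and 16.5 ± 1.55 FPKM. Timp genes made up 45.0% of the summed FPKM of the members in controls and 40.5% in Rbfox2 KD mice. The differences between the group means of all 4 sums were smaller than the spread between mice or close to it.

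The comparison between Rbfox2 KD and control retina asks whether these genes differ with the loss of *Rbfox2*. Of the 38 members tested, none passed a false discovery rate (FDR) of 0.05 in the edgeR quasi-likelihood test, at which 0.0655% of the 16797 genes tested were called. At an unadjusted p under 0.05, 6 members were called (15.8%), against 13.3% of all genes. *Timp2*, *Adamtsl1*, *Mmp16* and *Adamts9* had the lower mean in Rbfox2 KD mice (4 members, 10.5%, against 6.87% of all genes), and *Adamtsl5* and *Mmp23* had the higher (2 members, 5.26%, against 6.42% of all genes). These shares are near those of all genes and are no result about the members. In 3 members (7.89%), *Mmp16*, *Adamts2* and *Adamts9*, every Rbfox2 KD mouse lay below every control, against 3.39% of all genes, and in 1 member (2.63%), *Mmp23*, every Rbfox2 KD mouse lay above, against 3.64% of all genes. With library size alone in place of TMM scaling, and in the deposited FPKM, the groups of *Adamts2* overlapped and those of the other 3 did not. The edgeR likelihood ratio test, which called 0.976% of all genes at FDR 0.05, and limma-voom, which called 0.0655%, also called 0 members, whereas DESeq2 called 1 of the 36 members to which it gave an adjusted p, *Adamts9*, and 3.07% of all 15137 genes to which it gave one.

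The differences were small and more often negative than positive. The median log2 fold change (Rbfox2 KD minus control) of the 38 members was -0.08, against 0.0016 for all genes tested, and 27 of 38 members (71.1%) had a negative value, against 49.3% of all genes. Without M901 and M902, 23 of the same 38 members were negative, against 52.2% of all genes, with a median of -0.057. As a median over the members of log2(CPM + 1) minus the control mean, M902 lay at -0.107, below the control range of -0.065 to 0.049. M901 at -0.062, M893 at 0.015 and M909 at -0.010 lay inside that range, M901 near its lower end. Of the 38 values, 35 lay within 0.5 of 0 on the log2 scale. The 3 beyond it were *Adamts9* (-0.79), *Mmp19* (-0.55) and *Mmp23* (0.57). The members varied more between control mice than genes in general, with a median coefficient of variation of CPM of 10.8% against 6.51%. The genes were not matched for level in this comparison, and 23 of the 41 members had a mean below 1 FPKM. By family, 4 of 4 Timp, 6 of 12 Mmp, 14 of 17 Adamts and 3 of 5 Adamtsl genes tested had a negative value, and without M901 and M902 the counts were 4, 5, 12 and 2. With upper-quartile scaling 28 members were negative, against 52.2% of all genes, and with library size alone 29, against 56.7%, where *Mmp24* and, with library size alone, *Mmp14* changed sign.

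**Figure D2:**
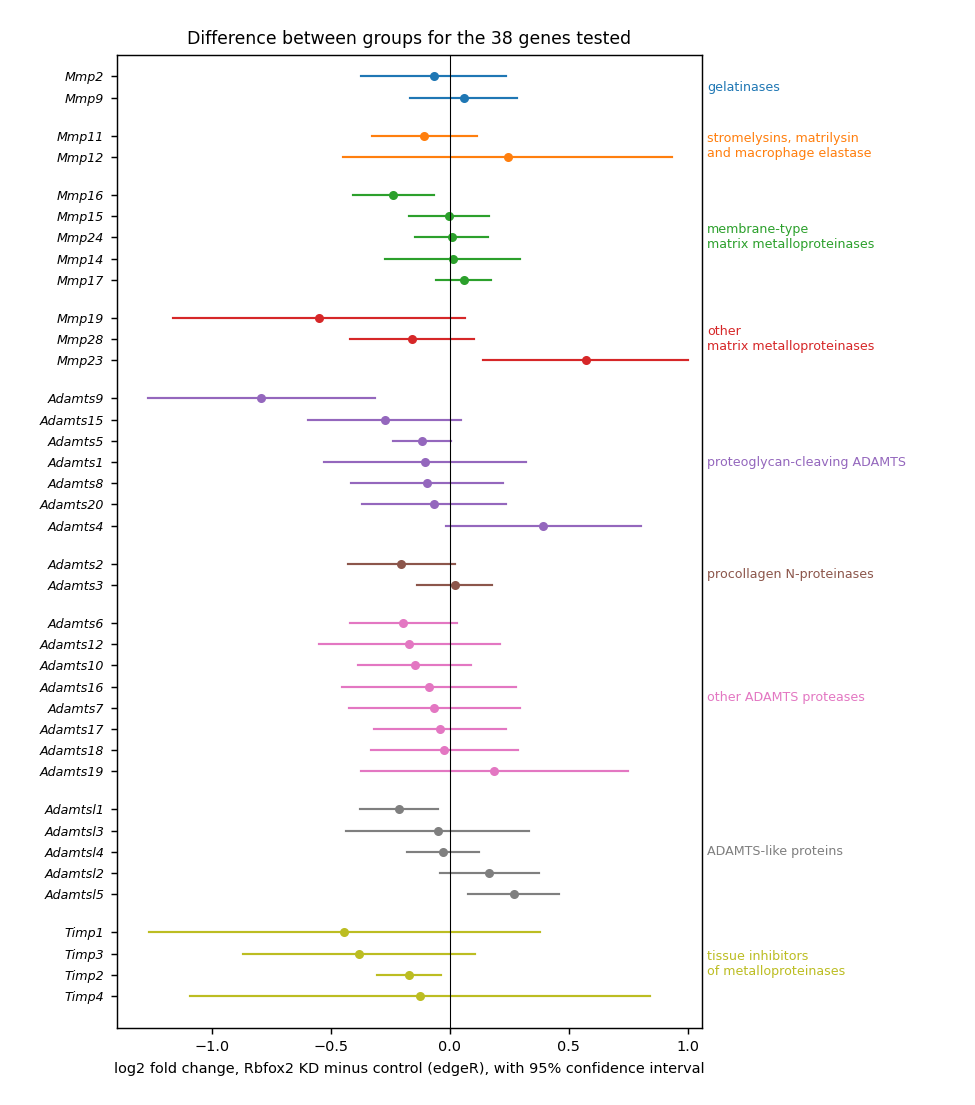
Fitted log2 fold change (Rbfox2 KD minus control, edgeR, 4 mice each) of the 38 genes tested, grouped by role. Points are the estimates and bars the 95% confidence intervals, which leave out 0 for *Adamts9*, *Mmp16*, *Mmp23*, *Adamtsl1*, *Adamtsl5* and *Timp2* without adjustment for the number of genes.

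Values per mouse are given as CPM scaled by the trimmed mean of M-values (TMM), in the order M833, M894, M896 and M898 for controls and M893, M901, M902 and M909 for Rbfox2 KD mice. Log2 fold changes are given ± their standard error (SE), and adjusted p-values are from the edgeR test over all genes. Some members overlap another coding gene in the annotation, among them *Timp2* (*Cep295nl*) and *Adamtsl1* (*Sh3gl2*) on the same strand and *Adamts9* (*A730049H05Rik* and *Gm15737*) on the opposite strand. The strand setting of the counting is not given in the sources used here, so the counts of such genes are uncertain as far as reads of the pair cannot be told apart.

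Among the proteoglycan-cleaving ADAMTS proteases, 6 of 7 had a negative log2 fold change, and *Adamts9*, which cleaves versican and aggrecan, had the lowest value of all members. *Adamts9* measured 1.97, 2.94, 2.31 and 2.84 CPM in the controls and 1.81, 1.14, 1.03 and 1.82 CPM in the Rbfox2 KD mice. The groups did not overlap, but M893 and M909 lay close under the lowest control, and M901 and M902 were the lowest of all. The Rbfox2 KD mean was 57.6% of the control mean (log2 fold change -0.79 ± 0.21, adjusted p = 0.216 by edgeR, 0.014 by DESeq2), and without M901 and M902 the log2 fold change was -0.48. *Adamts9* was present at only 0.420 ± 0.0801 FPKM in controls. *Adamts1*, the most abundant gene of this role and another versican-cleaving protease, measured 21.3, 41.5, 22.4 and 32.2 CPM in the controls and 30.6, 28.4, 23.6 and 26.7 CPM in the Rbfox2 KD mice. Its controls spread more widely than its Rbfox2 KD mice, which lay inside the control range (log2 fold change -0.10 ± 0.19, adjusted p = 0.854). The remaining members were *Adamts4* (0.39), *Adamts5* (-0.12), *Adamts8* (-0.10), *Adamts15* (-0.27) and *Adamts20* (-0.07), with overlapping groups. Without M901 and M902 the value of *Adamts15* was -0.09.

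The procollagen N-proteinases remove the amino-terminal propeptide of fibrillar procollagens. *Adamts3*, which also acts on the precursor of the lymphatic growth factor VEGF-C, measured 88.8, 90.8, 86.5 and 82.2 CPM in the controls and 77.5, 85.99, 88.9 and 101 CPM in the Rbfox2 KD mice. The groups overlapped, with M893 the lowest and M909 the highest of all mice, and the 95% confidence interval of its log2 fold change was -0.14 to 0.18 (log2 fold change 0.02 ± 0.07, adjusted p = 0.933). *Adamts2* measured 2.48, 2.71, 2.66 and 2.79 CPM in the controls and 2.43, 2.45, 1.99 and 2.37 CPM in the Rbfox2 KD mice. Its groups did not overlap with TMM scaling, but the gap between the lowest control, M833, and the highest Rbfox2 KD mouse, M901, was narrow, and in the deposited FPKM M833 at 0.3368 lay below M893 at 0.3374 (log2 fold change -0.20 ± 0.10, adjusted p = 0.411). On TMM-scaled CPM, an exact two-sided permutation test over the 70 groupings of the 8 mice gave p = 0.0286 for *Adamts2*, as for *Adamts9*, *Mmp16* and *Mmp23*, the smallest p that 4 against 4 allows. Every gene whose groups do not overlap on that scale gets this p, so it repeats the separation and is no further support. Such separation was found in 3.39% of all genes tested (lower in Rbfox2 KD mice) and 3.64% (higher). *Adamts14* had 1 to 17 counts per library and was not tested.

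**Figure D3:**
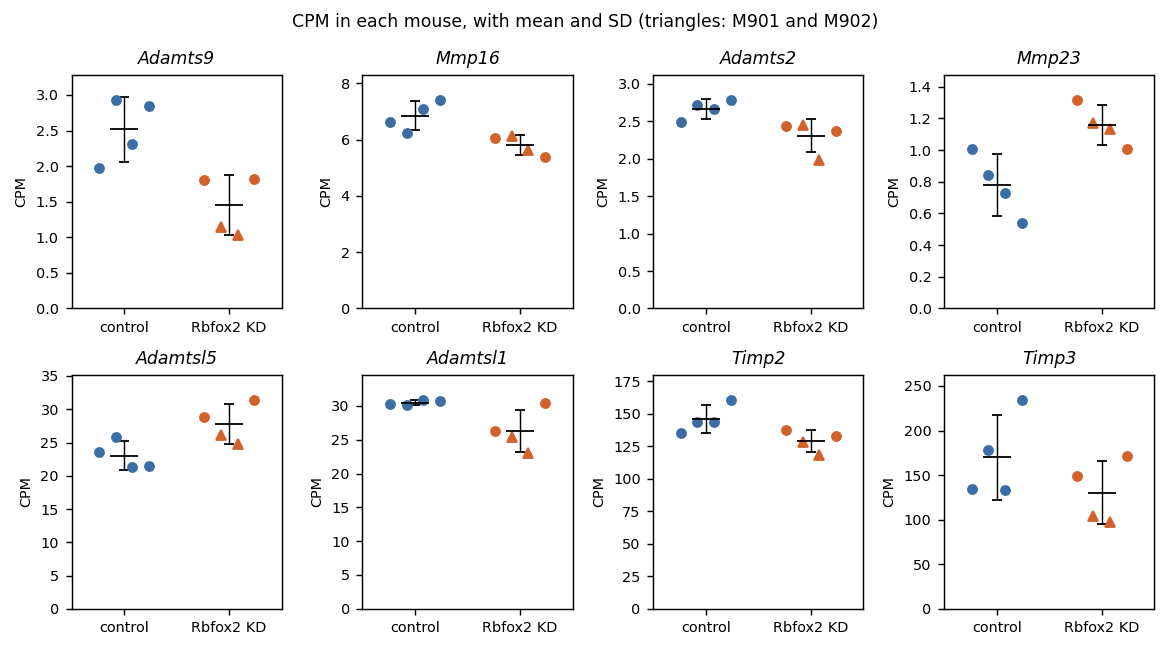
CPM in each mouse for the 8 members with an unadjusted p under 0.05, groups without overlap or the widest spread among the abundant inhibitors (*Timp3*). Points are single mice (triangles mark M901 and M902), bars the mean and SD of 4 mice, and the vertical axes start at 0. On this TMM scale the groups are separate, by narrow gaps, for *Adamts9*, *Mmp16*, *Adamts2* and *Mmp23*.

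Of the other ADAMTS proteases, 7 of 8 tested had a negative log2 fold change, from -0.20 (*Adamts6*) to 0.19 (*Adamts19*), and none reached an unadjusted p under 0.05. The most abundant, *Adamts10*, acts on fibrillin microfibrils and is a gene of Weill-Marchesani syndrome. It measured 23.6, 29.2, 24.2 and 24.4 CPM in the controls and 27.4, 19.1, 21.97 and 23.1 CPM in the Rbfox2 KD mice. M894 stood above the other controls and M901 was the lowest of all, and the groups overlapped (log2 fold change -0.15 ± 0.11, adjusted p = 0.578). Without M901 and M902 its log2 fold change was -0.01, and that of *Adamts12* was -0.04 in place of -0.17.

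The membrane-type matrix metalloproteinases cut the matrix at the cell surface, and *Mmp14*, the type member, also activates the precursor of *Mmp2*. *Mmp16* measured 6.64, 6.25, 7.07 and 7.42 CPM in the controls and 6.06, 6.14, 5.65 and 5.39 CPM in the Rbfox2 KD mice. The groups did not overlap, but the highest Rbfox2 KD mouse, M901 at 6.14 CPM, lay close under the lowest control, M894 at 6.25 CPM. The lowest value was that of M909 and not of M901 or M902, and the Rbfox2 KD mean was 84.8% of the control mean (log2 fold change -0.24 ± 0.08, adjusted p = 0.268). Without M901 and M902 the log2 fold change was -0.26. *Mmp17*, which is anchored in the membrane by a lipid, was the most abundant of this role and measured 33.1, 28.7, 31.4 and 30.2 CPM in the controls and 31.3, 33.9, 31.9 and 31.2 CPM in the Rbfox2 KD mice. These groups overlapped, and the confidence interval of the log2 fold change was -0.06 to 0.17 (log2 fold change 0.06 ± 0.05, adjusted p = 0.667). *Mmp14*, *Mmp15* and *Mmp24* had log2 fold changes of 0.01, -0.0033 and 0.0076, with SE of 0.13, 0.08 and 0.07. *Mmp25* had 3 to 13 counts per library and was not tested.

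*Mmp23* is a short member of the family that lacks the hemopexin domain. It measured 1.004, 0.843, 0.731 and 0.536 CPM in the controls and 1.32, 1.17, 1.13 and 1.01 CPM in the Rbfox2 KD mice. Every Rbfox2 KD mouse lay above every control, but the gap between the lowest Rbfox2 KD mouse, M909 at 1.006 CPM, and the highest control, M833 at 1.004 CPM, was far smaller than the spread within either group. The Rbfox2 KD mean was 149% of the control mean (log2 fold change 0.57 ± 0.19, adjusted p = 0.276), and the log2 fold change without M901 and M902 was 0.57. *Mmp28* (epilysin), the most abundant of the remaining matrix metalloproteinases outside the named classes, measured 2.19, 2.09, 2.35 and 1.93 CPM in the controls and 1.87, 1.99, 1.65 and 2.16 CPM in the Rbfox2 KD mice, and the groups overlapped (log2 fold change -0.16 ± 0.12, adjusted p = 0.583). *Mmp19* had a log2 fold change of -0.55 with overlapping groups (adjusted p = 0.419 by edgeR), which was -0.17 without M901 and M902.

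The gelatinases cleave denatured collagen and the type IV collagen of basement membranes. *Mmp9* measured 19.2, 23.9, 27.04 and 25.4 CPM in the controls and 26.2, 26.8, 23.9 and 22.5 CPM in the Rbfox2 KD mice, and M833 was the lowest while the other mice of both groups covered the same range (log2 fold change 0.06 ± 0.10, adjusted p = 0.844). *Mmp2* had a log2 fold change of -0.07 ± 0.14 (SE). *Mmp11* (stromelysin 3) measured 3.51, 4.52, 3.90 and 4.01 CPM in the controls and 3.79, 3.85, 3.30 and 3.85 CPM in the Rbfox2 KD mice. M902 was the lowest, M894 the highest, and the groups overlapped (log2 fold change -0.11 ± 0.10, adjusted p = 0.671). *Mmp12*, the macrophage elastase, had a log2 fold change of 0.24 ± 0.31 (SE). *Mmp13*, the only collagenase in the table, had 14, 7, 16 and 7 counts in the controls and 6, 10, 7 and 14 counts in the Rbfox2 KD mice, all above the limit that a count of 0 allows but too few to be tested. *Mmp11* overlaps *Chchd10* on the opposite strand.

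The ADAMTS-like proteins have no catalytic site. *Adamtsl5*, which binds fibrillin microfibrils, measured 23.6, 25.9, 21.3 and 21.5 CPM in the controls and 28.8, 26.1, 24.7 and 31.4 CPM in the Rbfox2 KD mice. M893, M901 and M909 were above the highest control, whereas M902 lay below it. The Rbfox2 KD mean was 120.4% of the control mean (log2 fold change 0.27 ± 0.09, adjusted p = 0.263), and the log2 fold change without M901 and M902 was 0.38. *Adamtsl1* measured 30.3, 30.1, 30.9 and 30.7 CPM in the controls and 26.2, 25.3, 23.04 and 30.5 CPM in the Rbfox2 KD mice. Its controls lay within a narrow range, M893, M901 and M902 lay below it, and M909 lay inside it (log2 fold change -0.21 ± 0.07, adjusted p = 0.277). Without M901 and M902 the log2 fold change of *Adamtsl1* was -0.11. *Adamtsl2*, *Adamtsl3* and *Adamtsl4* had log2 fold changes of 0.16, -0.05 and -0.03 with overlapping groups.

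All 4 inhibitors had a negative log2 fold change, and none passed FDR 0.05. *Timp2*, which inhibits the gelatinases and takes part in the activation of *Mmp2*, measured 135, 143, 144 and 161 CPM in the controls and 138, 128, 118 and 133 CPM in the Rbfox2 KD mice. The groups overlapped, since M893 lay above the lowest control, M833. The Rbfox2 KD mean was 88.8% of the control mean (log2 fold change -0.17 ± 0.06, adjusted p = 0.284), and the log2 fold change without M901 and M902 was -0.11. *Timp3*, which binds to the matrix and inhibits ADAMTS proteases as well as matrix metalloproteinases, measured 134, 178, 133 and 234 CPM in the controls and 148, 104, 97.4 and 172 CPM in the Rbfox2 KD mice. M898 was the highest and M901 and M902 the lowest of all mice, and M893 and M909 lay inside the control range (log2 fold change -0.38 ± 0.22, adjusted p = 0.481). Without M901 and M902 the log2 fold change of *Timp3* was -0.09. *Timp3* overlaps *Syn3* on the opposite strand.

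*Timp1* and *Timp4* were low, and their error was wide. *Timp1*, an inhibitor of *Mmp9* among others and X-linked, measured 0.389, 0.260, 0.178 and 0.311 CPM in the controls and 0.199, 0.104, 0.189 and 0.344 CPM in the Rbfox2 KD mice, and the groups overlapped (log2 fold change -0.44 ± 0.37, adjusted p = 0.634). The log2 fold change of *Timp1* was -0.80 without M909, -0.25 without M833, -0.22 without M901 and -0.07 without M901 and M902. *Timp4* measured 0.0913, 0.232, 0.261 and 0.220 CPM in the controls and 0.284, 0.161, 0.221 and 0.0729 CPM in the Rbfox2 KD mice. M833 and M909 were the lowest, 1 in each group, and the 95% confidence interval of the log2 fold change, -1.09 to 0.84, did not fix its direction (log2 fold change -0.13 ± 0.43, adjusted p = 0.931). *Timp1* lies with *Syn1* and *Timp4* with *Syn2* on the opposite strand.

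The members' lowest values fell often in M901 or M902. For 18 of 38 members (47.4%) the lowest of the 8 mice was M901 or M902, against 27.5% of all genes tested, and for 8 of the 38 members (*Timp2*, *Timp3*, *Adamtsl1*, *Adamts9*, *Adamts10*, *Adamts12*, *Adamts15* and *Mmp19*) both were below all other mice, against 9.35% of all genes. Without these libraries 40 members passed the filter, none passed FDR 0.05, and 5 (12.5%) had an unadjusted p under 0.05 (*Adamts4*, *Adamts9*, *Adamtsl2*, *Adamtsl5* and *Mmp16*), against 6.01% of all genes. Some markers of several cell types, within the retina and next to it, were low in the same mice. Of the 6 measured markers of ciliary body and iris epithelium, 4 (*Best2*, *Gja1*, *Slc13a4* and *Wfdc1*) were lower in M901 and M902 than in all other mice. *Best2* measured 5.13, 7.31, 7.12 and 16.03 CPM in the controls and 4.26, 0.150, 0.208 and 4.14 CPM in the Rbfox2 KD mice, so it was highest in M898 and lowest in M901 and M902, as was *Timp3*. Summed over the list, these markers reached 227 to 347 CPM in controls and 188 to 245 CPM in Rbfox2 KD mice, of which the water channel gene *Aqp1* alone made up 169.5 to 203.7 CPM over all mice. The other 5 markers summed to 36.6 to 143.7 CPM in controls, 54.9 and 68.0 CPM in M909 and M893, and 7.40 and 7.80 CPM in M901 and M902. The part of these cells in the values of the members was not tested.

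**Figure D4:**
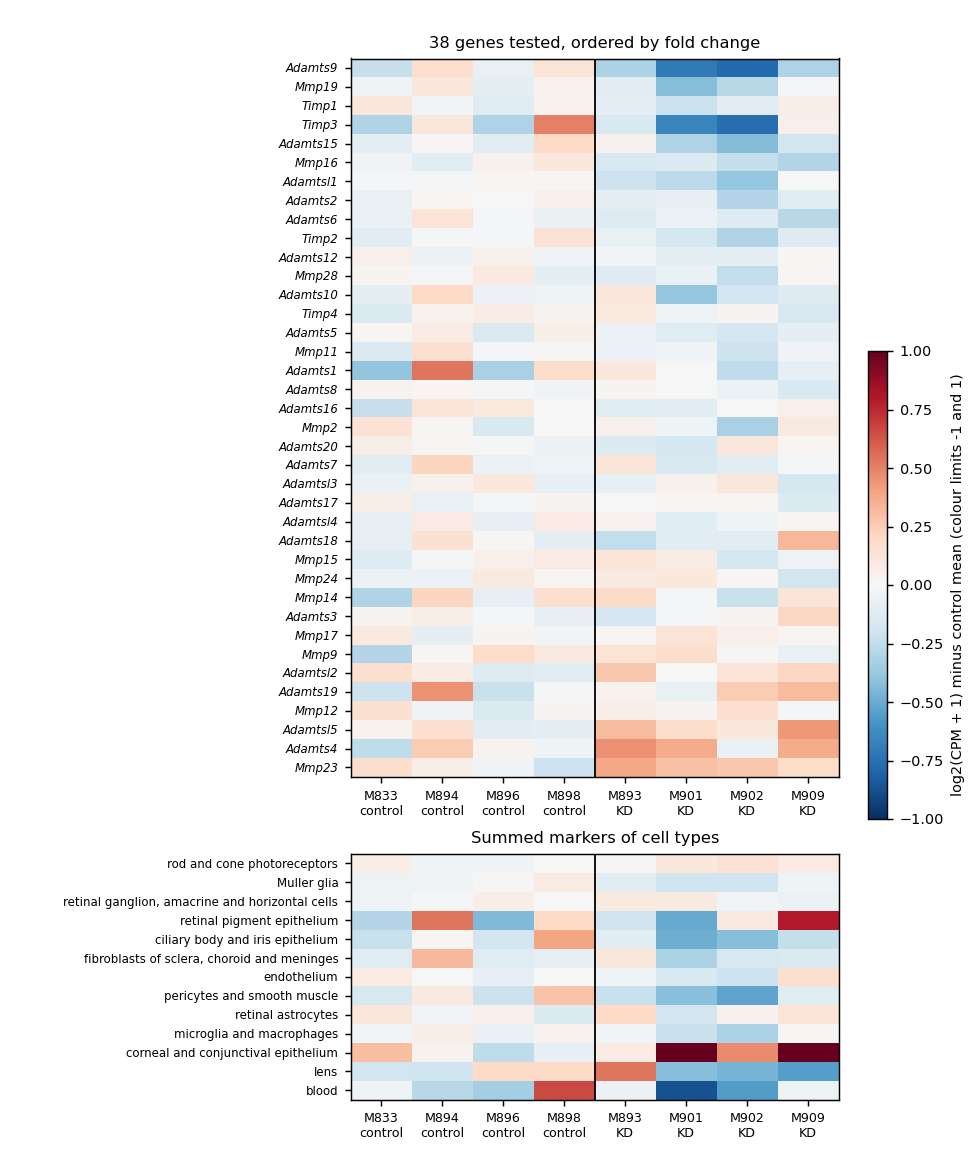
log2(CPM + 1) of each mouse minus the mean of the 4 controls, for the 38 genes tested (ordered by fold change) and for summed markers of 13 cell types (colour limits -1 and 1, which the corneal markers exceed in M901 and M909). *Adamts9*, *Timp3* and the marker sums of Muller glia, microglia, endothelium, pericytes, fibroblasts, ciliary body and blood are lowest in M901 and M902.

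Of the other marker lists, fibroblast markers summed to 121 to 165 CPM in controls and 105 to 143 CPM in Rbfox2 KD mice, with 4 of 7 lowest in M901 and M902, and pericyte and smooth muscle markers to 45.3 to 64.5 and 36.4 to 48.6 CPM, with 3 of 6 lowest there. Pigment epithelium markers summed to 92.8 to 183 CPM in controls and 88.5 to 219 CPM in Rbfox2 KD mice, with 1 of 8 lowest there, and microglia and macrophage markers to 36.4 to 39.8 and 30.5 to 38.5 CPM, with 3 of 6. Markers of retinal ganglion, amacrine and horizontal cells summed to 533 to 576 CPM in controls and 528 to 591 CPM in Rbfox2 KD mice, with 0 of 6 lowest there. Astrocyte markers summed to 18.7 to 22.5 and 18.1 to 23.9 CPM, with 1 of 3 lowest there, and of the photoreceptor markers 0 of 8 were. Corneal and conjunctival markers summed to 2.02 to 3.43 CPM in controls and 2.81 to 70.2 CPM in Rbfox2 KD mice, the highest being M909. Endothelial markers summed to 213 to 238 CPM in controls and 195 to 252 CPM in Rbfox2 KD mice, and markers of Muller glia, the glial cells that span the retina, to 5038 to 5532 and 4544 to 5061 CPM. The sums of the Muller glia, microglia, endothelium, pericyte, fibroblast, ciliary and blood lists were lowest in M901 and M902, whereas the pigment epithelium sum of M902 (134 CPM) lay inside the control range and the corneal sums of M901 and M902 (7.55 and 4.00 CPM) lay above every control. Single markers went less with these sums: only 1 of 6 Muller glia markers (*Apoe*), 1 of 6 endothelial markers (*Kdr*) and 1 of 2 blood markers (*Alas2*) were lowest in both mice. Most of the endothelial sum was *Kdr*, and most of the fibroblast sum was *Col6a1*, which was lowest in M909 (89.7 CPM). Most of the Muller glia sum was *Glul*, which was lowest in M893 (2946 CPM) and below every control in all Rbfox2 KD mice, as were 3.39% of all genes. DESeq2 called *Glul* at FDR 0.05, against 3.07% of all genes, and edgeR did not (adjusted p = 0.221). No marker of the ciliary, fibroblast or pericyte lists was at 0 in any mouse, whereas *Mip* and *Crygs* of the lens list and *Hba-a2* of the blood list were at 0 in at least 1 mouse. Their part in the results was not tested.

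Among 32 other matrix proteases, activators and inhibitors tested, 0 passed FDR 0.05 by edgeR, and 5 with a lower and 3 with a higher mean in Rbfox2 KD mice had an unadjusted p under 0.05, against 6.87% and 6.42% of all genes. At FDR 0.05, DESeq2 called 3 of the 32 (*Adam8*, *Adam9* and *Bmp1*), against 3.07% of all genes. The edgeR likelihood ratio test called 2 of the 32 (*Adam8* and *Adam9*), against 0.976% of all genes, and limma-voom 0, against 0.0655%. By sign, 23 of the 32 were negative with all mice and 16 without M901 and M902. The lowest p-values belonged to *Adam9*, a membrane-bound metalloprotease whose loss causes cone-rod dystrophy, *Adam8*, a metalloprotease of leukocytes, and *Bmp1*, the procollagen C-proteinase. *Adam9* measured 177, 161, 167 and 160.3 CPM in the controls and 186, 196, 186 and 189.7 CPM in the Rbfox2 KD mice, all above the controls (log2 fold change 0.19 ± 0.04, adjusted p = 0.127). *Adam8* measured 4.20, 4.05, 2.57 and 2.57 CPM in the controls and 5.33, 5.71, 6.25 and 4.83 CPM in the Rbfox2 KD mice, again without overlap (log2 fold change 0.72 ± 0.18, adjusted p = 0.179). *Bmp1* measured 21.8, 25.2, 24.4 and 24.3 CPM in the controls and 21.5, 16.5, 18.97 and 19.7 CPM in the Rbfox2 KD mice, all below the controls (log2 fold change -0.32 ± 0.08, adjusted p = 0.183).

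Among 30 substrates and binding partners of the members, 26 had a negative log2 fold change with a median of -0.26, 0 passed FDR 0.05 by edgeR, and 7 with a lower and 0 with a higher mean had an unadjusted p under 0.05, against 6.87% and 6.42% of all genes. At FDR 0.05, DESeq2 called 3 of the 30 (*Ltbp4*, *Tnr* and *Vwf*), against 3.07% of all genes. The edgeR likelihood ratio test called 2 of the 30 (*Ltbp4* and *Tnr*), against 0.976% of all genes, and limma-voom 0, against 0.0655%. For 16 of the 30, M901 and M902 were both below all other mice, against 9.35% of all genes tested. Without these libraries 18 of the 30 were negative, with a median of -0.087. *Ltbp4*, which tethers latent TGF-beta to microfibrils, measured 23.8, 23.2, 22.3 and 25.8 CPM in the controls and 20.04, 18.99, 16.9 and 19.9 CPM in the Rbfox2 KD mice without overlap (log2 fold change -0.33 ± 0.07, adjusted p = 0.116). *Tnr*, the tenascin of neural tissue, measured 101, 91.7, 94.3 and 97.5 CPM in the controls and 80.5, 82.3, 73.2 and 86.97 CPM in the Rbfox2 KD mice, also without overlap (log2 fold change -0.25 ± 0.05, adjusted p = 0.130). *Vwf*, the endothelial protein von Willebrand factor, measured 13.3, 17.7, 13.3 and 16.4 CPM in the controls and 9.68, 11.8, 7.15 and 13.2 CPM in the Rbfox2 KD mice, and its highest Rbfox2 KD mouse, M909, lay close under the lowest control (log2 fold change -0.54 ± 0.17, adjusted p = 0.266).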

How the data were processed

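Whole retinas of 4 control and 4 Rbfox2 KD mice were sequenced by the authors as paired reads, aligned to mm10 with STAR, restricted to uniquely mapped reads and counted per gene with HTSeq. The methods name both a RefSeq and an Ensembl annotation. The authors deposited raw counts, FPKM values and a signal of library-adjusted counts in 1 table, which lists only genes with 5 counts or more in 4 or more mice. The deposited log2 fold changes, p-values and FDR of the authors' own comparison, and the adjusted signal, were not used. Groups were taken from the genotype labels.

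The counts were tested over all genes with the edgeR 4.0.16 quasi-likelihood test in R 4.3.3 (filterByExpr, TMM scaling, Benjamini-Hochberg adjustment). CPM is the count scaled to the TMM-adjusted library size, and exact permutation tests were run on log2(CPM + 1). DESeq2 1.42.0, limma 3.58.1 (voom), other scalings and filters, and fits without single mice or without M901 and M902 were alternatives. The procedure was checked on simulated counts. Libraries of a group were compared in pairs by a chi-square test of counts, and the smallest value was 31.5 per degree of freedom, so no pair agreed within sampling noise. Nothing says that the mice are independent beyond their separate labels, and p-values measure the spread between these samples. Limits from counts cover counting error only, whereas the confidence intervals of the log2 fold changes also include the spread between mice.

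The members and lists were chosen with earlier results of these data known. Named are members with an unadjusted p under 0.05 or groups without overlap, the Timp genes and the member with the highest FPKM in each role, and in the other lists the 3 genes with the lowest p. Members named beyond this rule were chosen after their values were seen.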

Additional observations from a re-analysis of the deposited data

Results flagged for a closer look

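In 36 groups of 4 mice (the 18 named members in each group), 2 held a mouse far from the other 3 by Dixon's test at the 95% level, where chance alone gives about 1.8. *Adamts10* measured 29.18 CPM in the control M894, against 23.6 to 24.4 CPM in the other controls. *Mmp11* measured 3.296 CPM in the Rbfox2 KD mouse M902, against 3.79 to 3.85 CPM in the other Rbfox2 KD mice.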

How the results depend on the processing

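Of 289 values of the 17 named members tested, over 17 alternatives, 282 kept their direction and their side of FDR 0.05. *Adamts9* passed FDR 0.05 with DESeq2 only (log2 fold change -0.79, adjusted p 0.014), so that the count of members past FDR 0.05 was 1 with DESeq2 and 0 under every other alternative, and DESeq2 gave no adjusted p to *Timp1* and *Timp4*. The cause was not tested. The other 6 changed direction, each in a fit without 1 mouse: over these fits, the log2 fold change ranged from -0.037 to 0.12 for *Mmp9* (negative without M833), from -0.23 to 0.11 for *Adamts1* (positive without M894), from -0.41 to 0.14 for *Timp4* (positive at 0.03 without M896 and 0.14 without M909), and from -0.050 to 0.078 for *Adamts3* (negative at -0.0069 without M898 and -0.050 without M909). The cause was not tested. The count of members with an unadjusted p under 0.05 was 5 to 9 over all alternatives. The median log2 fold change was negative under all alternatives, from -0.05 to -0.11. Members whose groups did not overlap numbered 4, were 3 with library size alone (*Adamts2* was lost), ranged from 4 to 7 without 1 mouse (7 without M893 and 7 without M909), and reached 9 without M901 and M902, where fewer mice are compared. No paired analysis was possible because the groups share no replicate numbers. At this depth, *Mmp13*, *Mmp25* and *Adamts14* could not be tested, and differences of *Timp1*, *Timp4* and *Mmp12* smaller than their wide confidence intervals were not detectable.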
